A study of Homo sapiens with 9 samples.

Results

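The second of the siRNAs against ZIP7 (siZIP7_2) was compared with a non-targeting control siRNA (siNC) in MDA-MB-231 cells, a human triple-negative breast cancer line, across all protein-coding genes. The members are the 19892 protein-coding genes among the 58395 gene identifiers counted, of which 13322 passed the low-count filter and were tested. There were 3 libraries of siNC and 3 of siZIP7_2, and the 3 libraries of the first siRNA (siZIP7_1) were used to find the changes that siZIP7_2 made alone, so 9 libraries entered the fit. All groups were cells reverse transfected with siRNA and harvested 96 h later, so the control cells also carried an siRNA. The ZIP7 siRNAs came from different suppliers, Horizon for siZIP7_1 and Qiagen for siZIP7_2, and the supplier of siNC is not given in the sources used here. An effect of losing ZIP7 and any other effect of the siZIP7_2 molecule therefore cannot be told apart in this comparison. The transfections are described as triplicates, without a statement on whether they were separate cultures or days, so the p-values measure the spread between these libraries, which may be technical.

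ZIP7, encoded by SLC39A7, is a zinc transporter of the endoplasmic reticulum (ER) and Golgi membranes that releases zinc from their lumen into the cytosol. The ER is where secreted and membrane proteins fold, and misfolded protein there starts the unfolded protein response through the sensors IRE1 (gene ERN1), PERK and ATF6, which raise chaperones such as BiP (gene HSPA5) and parts of ER-associated degradation such as HERPUD1. NF-kB is a family of transcription factors held in the cytosol by inhibitors such as IkBα, and once released it induces cytokines, chemokines and survival genes together with its own inhibitors.

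Between 24153785 and 30454419 reads were counted on genes in each library. Values are given as CPM (counts-per-million), read counts relative to the library total after TMM scaling. SLC39A7, at chr6:33200445-33204439 on the plus strand of GRCh38 in GENCODE release 29, was at 321, 343 and 322 CPM with siNC and 20.5, 19.5 and 17.6 CPM with siZIP7_2. All siZIP7_2 libraries lay far below the siNC libraries, with 5.84% of the control mean left and a log2 fold change of -4.10 (SE 0.063, edgeR quasi-likelihood test, Benjamini-Hochberg adjusted p = 1.16e-28). With siZIP7_1, SLC39A7 was at 35.4, 32.9 and 38.6 CPM. The libraries stood apart in other ways too: 9.99 to 11.5% of reads fell outside annotated genes with siZIP7_2 against 7.43 to 8.28% with siNC, and 3.27 to 3.88% of gene reads were mitochondrial against 2.26 to 2.65%. The part of these shares in the results was not tested. Of the 7 markers of the mesenchymal MDA-MB-231 state, 4 were higher and 3 lower with siZIP7_2, with a median log2 fold change of 0.41, and their summed level was 8984 to 9369 CPM with siZIP7_2 and 10303 to 10945 CPM with siNC. Vimentin (VIM), one of the 3 that were lower, was at 5567, 5688 and 5333 CPM with siNC and 2816, 2937 and 2935 CPM with siZIP7_2. The 11 blood and stromal markers summed to 31.0 to 37.0 CPM with siZIP7_2 and 10.2 to 11.9 CPM with siNC. Of these, CD3E, HBB, HBA1 and ALB, which define T cells, red cells and hepatocytes, did not pass the low-count filter, while CD14, PECAM1, CDH5 and PDGFRB were higher with siZIP7_2.

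Promoters of genes the results turn on are shown first, since the responses are named after the factors that read such sequences. The 4 printed were chosen because they held a word searched for, and the promoters of CXCL8, TNF, CCL20 and DNAJB9 held none of these letters in the window. Sequences are the last 150 bases before the start site, from RefSeq on GRCh38.p14, written 5′ to 3′ on the gene's strand in lower case with the words found in capitals. The words are the kB word, GGGA and TTCC with 2 bases between them, and the ER stress response element, CCAAT and CCACG with 9 bases between them. Also searched were the second form of that element, ATTGG and CCACG with 1 base between them, and the core of an ATF4 element, TTGCATCA. Each of the 4 words was searched on both strands of the 250 bases before the start site. In CXCL1 the kB word was found on both strands, at overlapping positions from -79 to -69 before the start, and in IL6 from -73 to -64. HSPA5 held the ER stress response element from -66 to -48 and HERPUD1 its second form from -117 to -107. HERPUD1 also held the ATF4 core from -176 to -169, outside the bases printed. SDF2L1, of the chaperone list, held the second form from -188 to -178 and is not printed.
CXCL1, chr4:73869243-73869392, plus strand: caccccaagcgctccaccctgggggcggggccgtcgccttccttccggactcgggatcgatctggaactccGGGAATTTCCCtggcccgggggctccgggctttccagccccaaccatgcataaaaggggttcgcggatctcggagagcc
IL6, chr7:22727050-22727199, plus strand: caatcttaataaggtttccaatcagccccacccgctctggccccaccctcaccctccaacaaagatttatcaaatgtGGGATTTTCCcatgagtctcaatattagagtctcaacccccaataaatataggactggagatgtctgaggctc
HSPA5, chr9:125241344-125241493, minus strand: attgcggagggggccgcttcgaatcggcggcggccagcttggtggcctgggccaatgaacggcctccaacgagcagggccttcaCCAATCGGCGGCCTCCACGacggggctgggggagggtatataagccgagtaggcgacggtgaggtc
HERPUD1, chr16:56931992-56932141, plus strand: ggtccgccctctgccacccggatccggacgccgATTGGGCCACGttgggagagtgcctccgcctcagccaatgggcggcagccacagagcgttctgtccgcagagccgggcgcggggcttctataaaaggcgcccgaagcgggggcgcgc
Of 27305 promoters in the table, 389 (1.42%) held the kB word, 22 (0.0806%) the ER stress response element and 14 (0.0513%) its second form. The ATF4 core was in 224 (0.82%). The lists below hold only genes tested. Over the 10549 promoters of protein-coding genes tested, the shares were 1.40% for the kB word and 0.133% for the ER stress response element. They were 0.104% for its second form and 0.408% for the ATF4 core. Promoters were matched by symbol for 25 of the 32 genes in the list of NF-kB cytokines and chemokines, and 11 of these 25 (44.0%) held the kB word. Those 11 were REL, NFKBIZ, CXCL1, CXCL5, CXCL3, CXCL2, NFKB1, TNFAIP3, IL6, NFKBIA and IL32. Of the 27 matched genes of ER chaperones and folding enzymes, 6 (22.2%) held the ER stress response element. Of the 23 matched genes of ER-associated degradation, 0 held that element and 1 its second form. The ATF4 core was in 0 of the 19 matched promoters of amino acid genes under ATF4. A match is a description of the letters and not a site of binding.

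With siZIP7_2, 10881 protein-coding genes differed from siNC at an adjusted p under 0.05, which is 81.7% of the 13322 tested, with 5028 (37.7%) higher and 5853 (43.9%) lower. Because most genes passed that test, a stricter call was also used, in which the change itself had to exceed 1.8-fold (glmTreat in edgeR). By this call 3141 genes (23.6%) had changed, and 1610 genes (12.1%) were higher and 1531 (11.5%) lower. The median log2 fold change of all protein-coding genes tested was -0.06, and upper-quartile scaling in place of TMM moved it to 0.05 and turned the balance to 5717 higher and 5159 lower. Single genes can be read relative to that shift of 0.106. The RNA came from whole cultures, so a change in the number of cells of a kind and a change in RNA per cell cannot be told apart. A gene was counted as changed by siZIP7_2 alone when it differed by more than 1.8-fold both from siNC and from siZIP7_1 in one direction, and siZIP7_1 either stayed within 1.5-fold of siNC over its whole 95% interval or had moved more than 1.8-fold the other way. This gave 889 genes (6.67%), with 388 higher (2.91%) and 501 lower (3.76%). Hand-written lists describe the pathways, each by how many of its members passed the calls.

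**Figure D1:**
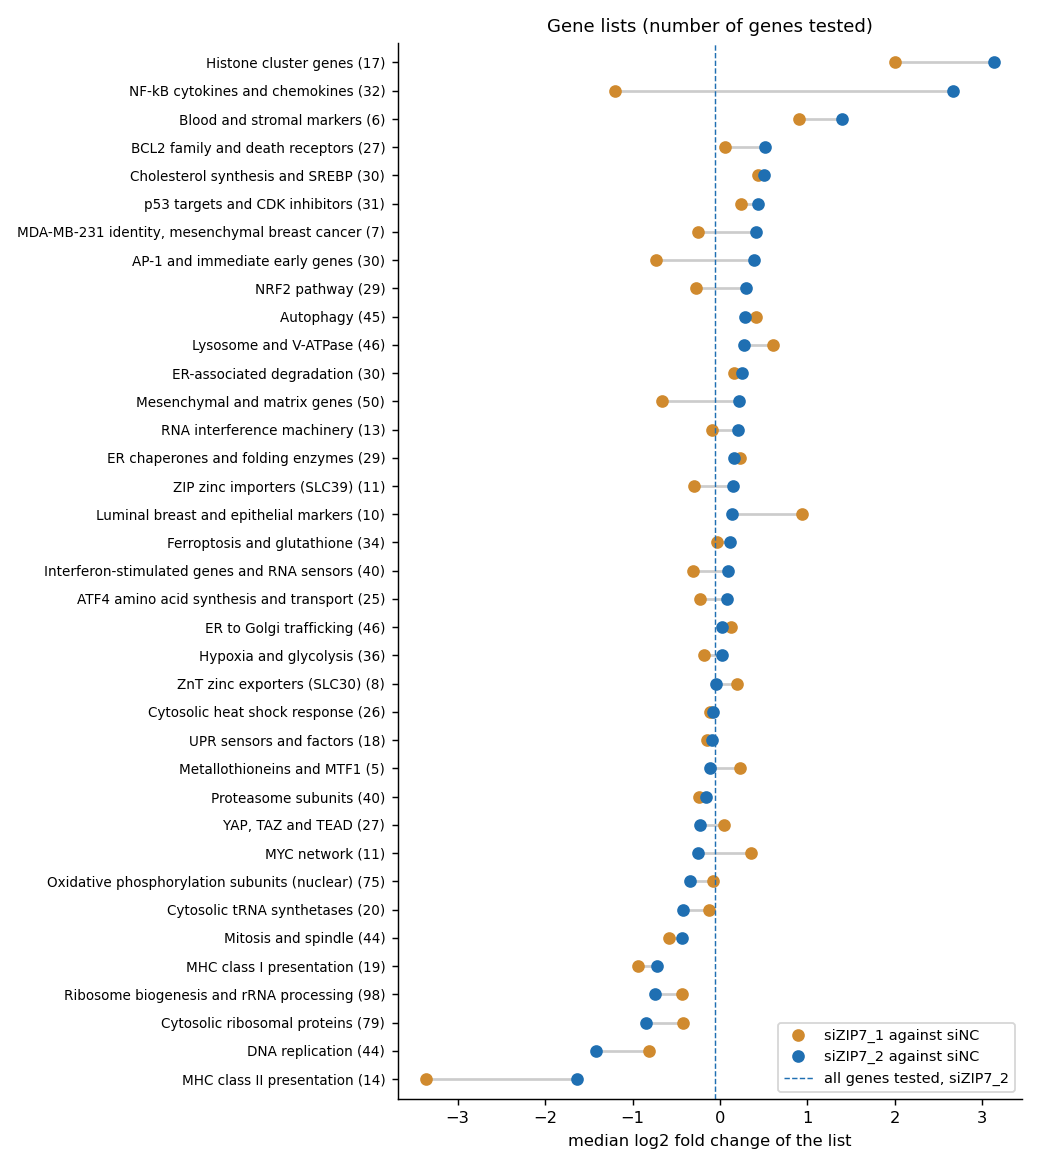
Median log2 fold change of each gene list against siNC with siZIP7_2 (blue) and siZIP7_1 (orange), with the number of genes tested in brackets. The dashed line is the median of all protein-coding genes tested with siZIP7_2, at -0.06, and the NF-kB cytokine list has its siZIP7_2 point at 2.66 and its siZIP7_1 point at -1.20.

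Most genes of the list of NF-kB cytokines and chemokines rose with siZIP7_2. Of the 37 lists it had the largest share of members raised by this siRNA alone. The list also holds subunits of NF-kB, such as RELA, and inhibitors, such as NFKBIA, so its counts are not of cytokines and chemokines only. Of its 32 genes, all tested, 30 (93.8%) were higher and none lower at an adjusted p under 0.05, against 37.7% and 43.9% of all genes. Past 1.8-fold, 26 (81.2%) were higher, where 12.1% of all genes tested were. The median log2 fold change was 2.66 with siZIP7_2 and -1.20 with siZIP7_1. Of the 32, 18 were changed by siZIP7_2 alone, all of them higher, which is 56.2% of the list where 2.91% of all genes tested were higher alone. Of the 11 blood and stromal markers 6 passed the low-count filter, and 4 of these rose with siZIP7_2, where 37.7% of all genes tested were higher. Members high in 1 group pass that filter more easily, and CDH5 had 1 read over the siNC libraries and 105 over the siZIP7_2 libraries. The part of these markers in the cytokine result was not tested.

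IL1B, the secreted inflammatory cytokine interleukin-1β, was at 21.3, 18.4 and 21.8 CPM with siNC and 1736, 1559 and 1615 CPM with siZIP7_2. Every siZIP7_2 library was far above every siNC library, a log2 fold change of 6.31 (SE 0.0682, edgeR quasi-likelihood test, Benjamini-Hochberg adjusted p = 5.35e-32). With siZIP7_1 the same gene was at 1.89, 2.16 and 1.82 CPM, below all siNC libraries. IL1A, its relative interleukin-1α, was at 3.12, 2.75 and 3.49 CPM with siNC and 105, 97.5 and 101 CPM with siZIP7_2, a log2 fold change of 5.01. TNF, tumor necrosis factor, was hardly detected in control cells, at 0.145, 0.0859 and 0.107 CPM with siNC and 21.8, 17.2 and 17.5 CPM with siZIP7_2. The siZIP7_2 libraries were close to each other, and the log2 fold change was 7.31 (SE 0.24). IL6, the acute-phase cytokine whose promoter is shown above, was at 11.8, 10.3 and 10.8 CPM with siNC and 117, 98.01 and 103 CPM with siZIP7_2. Its groups did not overlap, with a log2 fold change of 3.27 against -2.83 with siZIP7_1, and genes that overlap it cover 20.7% of its exons. IL24, a cytokine of the interleukin-10 family, rose from 4.21 ± 0.783 to 359 ± 16.02 CPM (SD, n = 3 each). IL11, a relative of IL6, was at 78.9, 92.6 and 72.05 CPM with siNC and 1486, 1273 and 1410 CPM with siZIP7_2, a log2 fold change of 4.10.

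Chemokines, which draw leukocytes, rose in the same way. CXCL8, the neutrophil attractant interleukin-8, was at 152, 133 and 171 CPM with siNC and 3179, 2459 and 2767 CPM with siZIP7_2. No libraries of these groups overlapped, a log2 fold change of 4.21 (SE 0.0835, edgeR quasi-likelihood test, Benjamini-Hochberg adjusted p = 4.79e-26). CXCL1, which binds the same receptor, was at 22.5, 20.6 and 22.9 CPM with siNC and 653, 580.5 and 618 CPM with siZIP7_2, a log2 fold change of 4.81. With siZIP7_1, CXCL1 was at 2.48, 2.06 and 2.04 CPM, so the siRNAs moved it in opposite directions from siNC. Its neighbours CXCL2 and CXCL3 had log2 fold changes of 4.57 and 3.14. CCL20, which attracts lymphocytes and dendritic cells, was at 0.835, 0.73 and 0.89 CPM with siNC and 73.7, 65.7 and 64.4 CPM with siZIP7_2. It was barely detected in the siNC libraries and clearly present in all siZIP7_2 libraries, a log2 fold change of 6.36. CCL2, the monocyte attractant, changed less, from 2.797 ± 0.263 to 8.31 ± 0.833 CPM (SD, n = 3 each).

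The colony-stimulating factors differed among themselves. CSF3, which drives neutrophil production, was at 2.29, 2.15 and 3.13 CPM with siNC and 186, 171 and 176 CPM with siZIP7_2, a log2 fold change of 6.12 (SE 0.085). With siZIP7_1 it was at 0.0728, 0.172 and 0.188 CPM, close to the limit of detection. CSF2, which acts on granulocytes and macrophages, rose from 32.4 ± 3.62 to 424 ± 30.7 CPM (SD, n = 3 each). CSF1, the macrophage factor, was at 493, 437 and 476 CPM with siNC and 479, 402 and 425 CPM with siZIP7_2, with overlapping libraries, a sign that turned under upper-quartile scaling and a log2 value of -0.11 (edgeR quasi-likelihood test, Benjamini-Hochberg adjusted p = 0.0865). It was one of 2 genes of the list that did not pass the test. The other was RELA, the p65 subunit of NF-kB itself, at 142, 143 and 138 CPM with siNC and 153, 139 and 139.6 CPM with siZIP7_2, whose sign changed with the settings.

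Inhibitors and products of the pathway also rose, and the inhibitor genes NFKBIA and TNFAIP3 were already counted in the list above. NFKBIA, which encodes IkBα, was at 46.2, 40.2 and 41.3 CPM with siNC and 247, 231 and 224 CPM with siZIP7_2. The groups did not overlap, with a log2 fold change of 2.46 (SE 0.0553), and with siZIP7_1 it was -0.14. TNFAIP3, which encodes the deubiquitinase A20, had log2 fold changes of 2.55 with siZIP7_2 and 1.64 with siZIP7_1. ICAM1, a leukocyte adhesion molecule, was at 71.9, 56.8 and 67.2 CPM with siNC and 1107, 956 and 1050 CPM with siZIP7_2, and genes that overlap it cover 23.6% of its exons. All siZIP7_2 libraries lay far above the siNC libraries, a log2 fold change of 3.99. PTGS2, the inducible cyclooxygenase that starts prostaglandin synthesis and is also followed as a ferroptosis marker, was at 56.1, 53.1 and 61.05 CPM with siNC and 1267, 1137 and 1163 CPM with siZIP7_2, a log2 fold change of 4.39 (SE 0.066). With siZIP7_1 PTGS2 was -1.86 on the log2 scale.

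**Figure D2:**
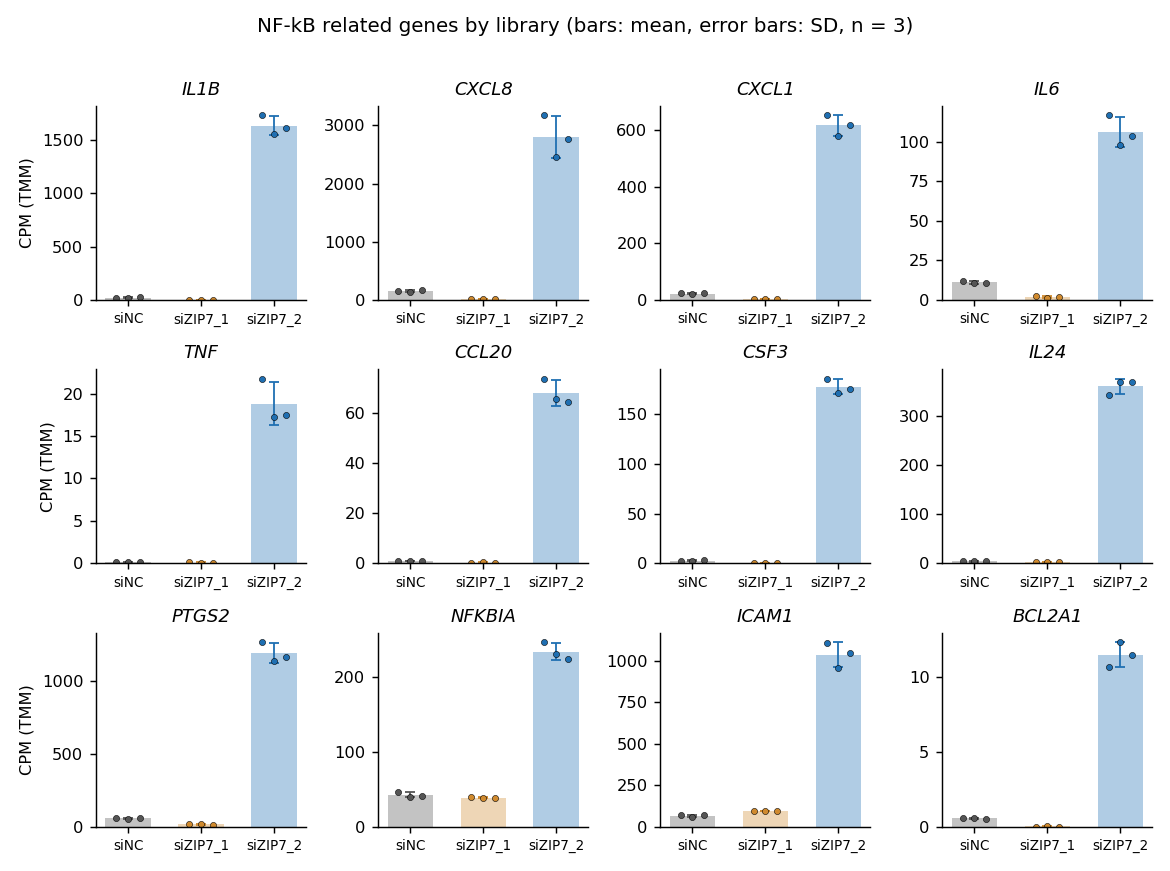
CPM of 12 NF-kB related genes in each library of siNC, siZIP7_1 and siZIP7_2, one panel a gene, with points for libraries, bars for the mean of 3 and error bars for the SD. In every panel the siZIP7_2 points are the highest, as for IL1B at 1637 ± 90.7 CPM against 20.5 ± 1.83 CPM with siNC.

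Genes of survival and death moved in both directions. Of the 27 BCL2 family and death receptor genes tested, 18 (66.7%) were higher and 7 (25.9%) lower at an adjusted p under 0.05. The shares of all genes tested were 37.7% and 43.9%. Of the 27, 7 (25.9%) were higher past 1.8-fold and 2 (7.41%) lower, where 12.1% and 11.5% of all genes tested were. BCL2A1, an anti-apoptotic BCL2 relative, was at 0.581, 0.558 and 0.498 CPM with siNC and 10.7, 12.4 and 11.5 CPM with siZIP7_2, a log2 fold change of 4.39 (SE 0.167). It was almost without reads with siZIP7_1. BIRC3, an inhibitor of apoptosis, rose from 55.6 ± 5.32 to 356 ± 7.695 CPM, and CFLAR, which blocks caspase-8, from 39.8 ± 2.101 to 193 ± 2.56 CPM (SD, n = 3 each). The pro-apoptotic effector BAX was at 121, 135 and 123 CPM with siNC, 129, 132 and 134 CPM with siZIP7_1 and 35.4, 32.4 and 32.3 CPM with siZIP7_2. Only the siZIP7_2 libraries stood apart, with 26.4% of the control mean left and a log2 fold change of -1.92 (SE 0.0547, edgeR quasi-likelihood test, Benjamini-Hochberg adjusted p = 1.42e-22). BOK, another BAX relative, fell likewise, from 61.3 ± 3.29 to 20.9 ± 1.07 CPM (SD, n = 3 each), and siZIP7_1 gave 0.24 on the log2 scale. The BH3-only genes BIK and PMAIP1, whose proteins promote apoptosis, had log2 fold changes of 3.83 and 0.77.

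In the list of AP-1 and immediate early genes, 21 of 30 (70%) were higher and 7 (23.3%) lower, where 37.7% and 43.9% of all genes tested were, and 8 (26.7%) were higher past 1.8-fold against 12.1%, with a median log2 fold change of 0.39 against -0.73 with siZIP7_1. IER3, a stress-induced survival gene, was at 410.1, 407 and 416 CPM with siNC and 3444, 3427 and 3416 CPM with siZIP7_2. The siZIP7_2 libraries were close to each other and lay 8.34-fold above siNC on average, while siZIP7_1 gave a log2 fold change of -2.58. Overlapping genes cover 26.5% of the exons of IER3. JUNB, a subunit of AP-1, rose by 2.14 on the log2 scale with siZIP7_2 and gave 0.05 with siZIP7_1. EGR1, a zinc finger transcription factor of the early growth response, gave 1.62 with siZIP7_2 and -1.25 with siZIP7_1.

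Of the 50 mesenchymal and matrix genes tested, 28 (56%) were higher and 18 (36%) lower, against 37.7% and 43.9% of all genes tested. Past 1.8-fold, 17 (34%) were higher and 5 (10%) lower, against 12.1% and 11.5%. The proteases led the list. MMP3, stromelysin-1, was at 0.472, 0.773 and 1.18 CPM with siNC and 31.2, 29.2 and 26.1 CPM with siZIP7_2, and MMP9, gelatinase B, at 0.472, 0.644 and 0.641 CPM with siNC and 11.8, 11.8 and 11.7 CPM with siZIP7_2. No siNC library overlapped a siZIP7_2 library for either gene, with log2 fold changes of 5.15 and 4.32. MMP1, interstitial collagenase, rose from 51.2 ± 5.99 to 723 ± 28.6 CPM, and its inhibitor TIMP1 from 139.8 ± 4.41 to 972 ± 103 CPM (SD, n = 3 each). PLAUR, the urokinase receptor, and TNC, the matrix protein tenascin-C, were each higher with siZIP7_2 and lower with siZIP7_1, at 1.97 against -2.05 and 1.34 against -4.61 on the log2 scale. Not all matrix genes rose. THBS1, thrombospondin-1, was at 4751, 4584 and 4705 CPM with siNC and 1600, 1629 and 1715 CPM with siZIP7_2, and HAS2, which makes hyaluronan, at 70.2, 82.6 and 77.2 CPM with siNC and 10.6, 11.5 and 7.805 CPM with siZIP7_2. Both fell without overlap, with log2 fold changes of -1.51 and -2.94. CD44, the hyaluronan receptor, rose from 816 ± 39.3 to 1793 ± 56.8 CPM (SD, n = 3 each).

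Of the 29 genes tested in the pathway of the oxidative stress factor NRF2, 16 (55.2%) were higher and 7 (24.1%) lower, against 37.7% and 43.9% of all genes tested. Past 1.8-fold, 8 (27.6%) were higher and 3 (10.3%) lower, against 12.1% and 11.5%. AKR1C1, an aldo-keto reductase, was at 8.75, 6.49 and 8.19 CPM with siNC and 256, 181 and 224 CPM with siZIP7_2, and AKR1B1, aldose reductase, at 411, 327 and 389.9 CPM with siNC and 2637, 1690 and 2276 CPM with siZIP7_2. The siZIP7_2 libraries were higher without overlap, with log2 fold changes of 4.81 and 2.55, and with siZIP7_1 the values were -3.21 and -4.04. AKR1C1 has near-identical relatives, and reads with several alignments were not counted, so its level is uncertain. HMOX1, heme oxygenase-1, rose by 1.28 and ME1, malic enzyme 1, by 1.24. NQO1, a classical NRF2 target, fell, from 337 ± 11.2 to 173 ± 1.15 CPM (SD, n = 3 each), so members of the list moved both ways.

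Ferroptosis is death by iron-dependent lipid peroxidation, the process for which the study examined ZIP7. Of the 34 ferroptosis and glutathione genes tested, 16 (47.1%) were higher and 9 (26.5%) lower, against 37.7% and 43.9% of all genes tested, 9 (26.5%) were past 1.8-fold, close to the 23.6% of all genes, and the median was 0.11. The ferritin chains, which store iron, moved apart. FTH1, the heavy chain, was at 418, 460.5 and 406 CPM with siNC and 1090, 1000 and 1091 CPM with siZIP7_2, and FTL, the light chain, at 1102, 1213 and 1116 CPM with siNC and 513, 456 and 489.5 CPM with siZIP7_2. Both groups were free of overlap, with log2 fold changes of 1.31 for FTH1 and -1.23 for FTL, and both were among the genes changed by siZIP7_2 alone. Overlapping genes cover 62.4% of the exons of FTH1, and ferritin has processed copies that can take reads. SAT1, which starts polyamine breakdown, was at 69.05, 54.95 and 72.2 CPM with siNC and 289, 257 and 260.5 CPM with siZIP7_2, a log2 fold change of 2.04. DHODH, a mitochondrial enzyme that reduces ubiquinone, had log2 fold changes of -1.54 with siZIP7_2 and -1.21 with siZIP7_1. SLC7A11, the cystine importer, rose by 0.59, while GPX4, the peroxidase that repairs lipid peroxides, changed by 0.13, a call lost without the low-count filter, and ACSL4, which loads polyunsaturated fatty acids into lipids, by 0.47.

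Among ER stress genes, 17 of 29 chaperones and folding enzymes (58.6%) were higher and 9 (31%) lower, and 21 of 30 genes of ER-associated degradation (70%) were higher and 7 (23.3%) lower, where 37.7% and 43.9% of all genes tested were. Of 18 sensors and factors of the unfolded protein response, 7 (38.9%) were higher and 9 (50%) lower, near the shares of all genes. Past 1.8-fold the shares higher were 6.90% of chaperones, 6.67% of degradation genes and 11.1% of factors, no more than the 12.1% of all genes. These were HSPA5 and DNAJB9 among the chaperones, HERPUD1 and FAM8A1 in degradation, and ERN1 and ATF3 among the factors, while FKBP7, a folding enzyme, and MBTPS2, a factor, were lower past 1.8-fold. FKBP7 fell with siZIP7_2 alone, from 9.75 ± 1.34 to 2.79 ± 0.637 CPM (SD, n = 3 each). HSPA5, encoding BiP, was at 768, 757 and 736 CPM with siNC and 1784, 1448 and 1676 CPM with siZIP7_2, a log2 fold change of 1.12 (SE 0.0579). HERPUD1, a scaffold of the degradation complex, was at 86.4, 84.7 and 85.4 CPM with siNC and 335, 305 and 331 CPM with siZIP7_2. Its groups did not overlap, and its log2 fold change was 1.92 (SE 0.0505). DNAJB9, an ER co-chaperone of BiP induced through XBP1, was at 19.6, 21.1 and 23.3 CPM with siNC and 83.2, 68.4 and 78.9 CPM with siZIP7_2, a log2 fold change of 1.85 against 0.99 with siZIP7_1. HSP90B1, another abundant ER chaperone, was at 1006, 983 and 1032 CPM with siNC and 1147, 1099 and 1142 CPM with siZIP7_2, a log2 fold change of only 0.17.

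ERN1, which encodes the sensor IRE1, was at 33.8, 37.2 and 35.7 CPM with siNC, 29.8, 29.1 and 30.8 CPM with siZIP7_1 and 95.2, 82.2 and 94.97 CPM with siZIP7_2. The siZIP7_2 libraries alone were high, with a log2 fold change of 1.35 (SE 0.0592), and ERN1 was the one gene of that list changed by siZIP7_2 alone. XBP1, the RNA that IRE1 splices, and ATF4, the factor translated after PERK acts, fell, with log2 fold changes of -0.47 and -0.66. Counts per gene do not show splicing or translation. ATF3, a factor downstream of ATF4, rose by 1.49, and DDIT3, encoding the death-linked factor CHOP, by 0.48, with overlapping genes covering 39.6% of its exonic length. MBTPS2, the site-2 protease that releases ATF6, was at 25.3, 22.6 and 25.99 CPM with siNC and 10.1, 9.804 and 9.54 CPM with siZIP7_2, a log2 fold change of -1.33.

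**Figure D3:**
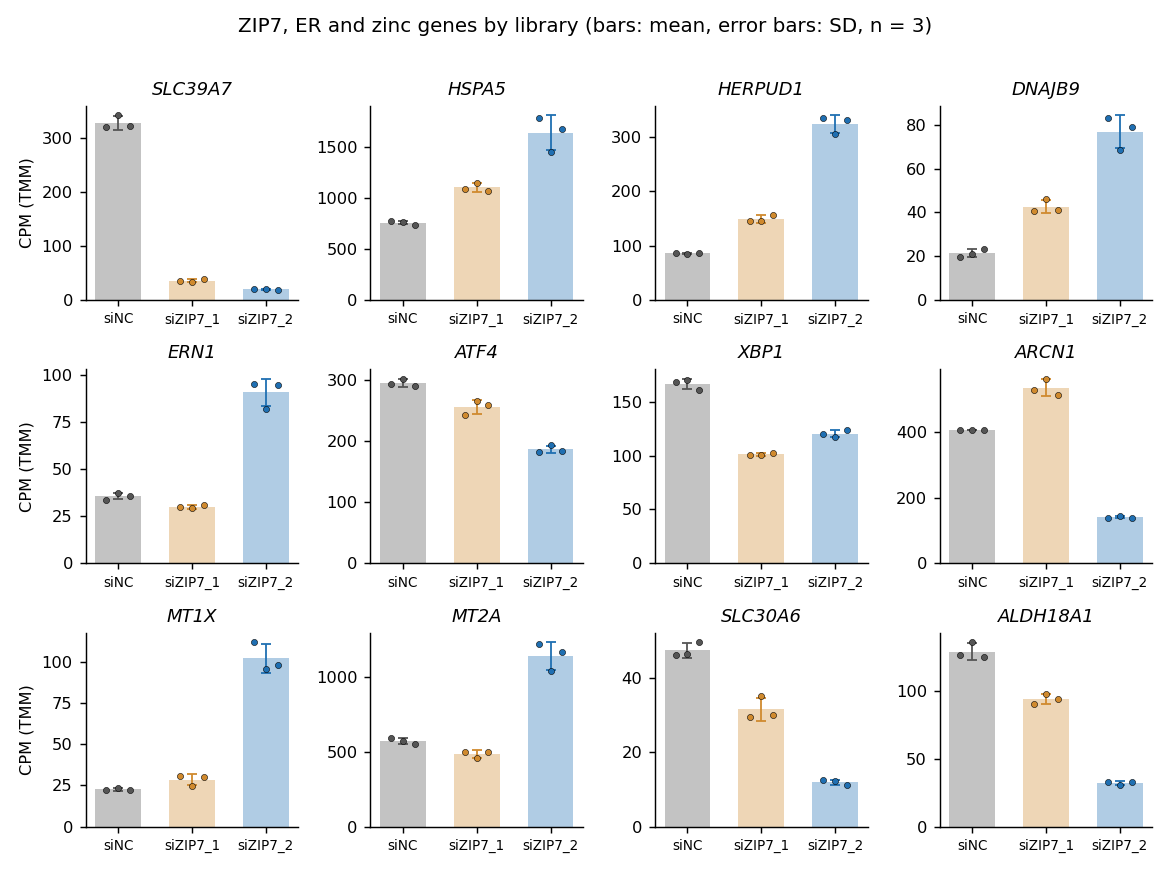
CPM of SLC39A7 and of ER, zinc and proline synthesis genes in each library of siNC, siZIP7_1 and siZIP7_2, with points for libraries, bars for the mean of 3 and error bars for the SD. HERPUD1 is highest with siZIP7_2 at 324 ± 16.5 CPM, while ARCN1 falls from 407 ± 1.19 CPM with siNC to 141 ± 3.81 CPM.

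Of the 46 genes of ER to Golgi trafficking, 19 (41.3%) were higher and 13 (28.3%) lower, against 37.7% and 43.9% of all genes. Past 1.8-fold were 2 (4.35%), against 23.6% of all genes, both lower and both changed by siZIP7_2 alone. ARCN1, the δ subunit of the COPI coat that returns proteins to the ER, was at 408, 406 and 406 CPM with siNC, 528, 564 and 514 CPM with siZIP7_1 and 138, 145 and 138 CPM with siZIP7_2. It fell to 34.6% of the control mean with siZIP7_2, while the siZIP7_1 libraries were above siNC. SEC31A, part of the outer COPII coat that leaves the ER, was at 353, 328 and 336 CPM with siNC and 159.6, 165 and 167 CPM with siZIP7_2, a log2 fold change of -1.05 (SE 0.0461). MCFD2, a cargo receptor subunit, rose by 0.67.

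Of the 25 genes of amino acid supply under ATF4 tested, 11 (44%) were higher and 10 (40%) lower, near the 37.7% and 43.9% of all genes. The proline synthesis enzymes fell with siZIP7_2 alone. ALDH18A1, the first of them, was at 126, 136 and 125 CPM with siNC and 32.9, 30.9 and 33.1 CPM with siZIP7_2, and PYCR1, the last, at 147, 149 and 138 CPM with siNC and 48.4, 47.6 and 50.02 CPM with siZIP7_2. No libraries overlapped, with log2 fold changes of -2.003 and -1.57, and overlapping genes cover 29.7% of the exons of PYCR1. SLC7A5, the large neutral amino acid importer, and PSPH, the last enzyme of serine synthesis, had log2 fold changes of -1.33 and -0.97. VLDLR, a lipoprotein receptor, was at 32.4, 32.4 and 29.7 CPM with siNC and 91.4, 89.2 and 93.01 CPM with siZIP7_2 and rose with siZIP7_2 alone, by 1.53. ASNS, asparagine synthetase, gave 0.45 with siZIP7_2 and -0.61 with siZIP7_1. Of the 20 cytosolic tRNA synthetases, 14 (70%) were lower, against 43.9% of all genes, and 4 (SARS, WARS, CARS and HARS) higher. FARSB, the β subunit of the phenylalanine enzyme, was at 86.01, 85.2 and 87.4 CPM with siNC and 13.6, 14.3 and 16.1 CPM with siZIP7_2, a log2 fold change of -2.55, and LARS, the leucine enzyme, fell by 1.64.

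Of the 11 ZIP genes tested, SLC39A7 was the only one lower (9.09%) and 7 (63.6%) were higher, where 43.9% and 37.7% of all genes tested were. None of the 7 was past 1.8-fold. SLC39A10, a plasma membrane importer, was at 33.2, 38.5 and 40.7 CPM with siNC and 53.1, 56.1 and 55.02 CPM with siZIP7_2, and SLC39A14, which also carries iron, at 209, 213 and 214 CPM with siNC and 284, 281 and 297 CPM with siZIP7_2. Each was higher in all siZIP7_2 libraries, with log2 fold changes of 0.55 and 0.44, where siZIP7_1 gave -0.88 and -1.59. Of the 8 zinc exporters tested, SLC30A1, SLC30A3 and SLC30A10 (37.5%) were higher, near the 37.7% of all genes. SLC30A6 and SLC30A9 (25%) were lower, against 43.9% of all genes. SLC30A1, the plasma membrane exporter, rose by 0.55. SLC30A6, a family member of the early secretory pathway, was at 45.9, 46.3 and 49.5 CPM with siNC. Its values were 29.5, 35.1 and 29.9 CPM with siZIP7_1 and 12.4, 12.2 and 11.2 CPM with siZIP7_2. The siZIP7_2 libraries were the lowest, with a log2 fold change of -1.99 (SE 0.0735). The metallothioneins MT1X and MT2A, cytosolic zinc buffers induced by zinc through MTF1, rose with siZIP7_2 alone. MT1X was at 22.3, 23.5 and 22.1 CPM with siNC and 112, 95.9 and 98.3 CPM with siZIP7_2 and MT2A at 593, 573 and 555 CPM with siNC and 1222, 1042 and 1171 CPM with siZIP7_2. Neither gene's groups overlapped, with log2 fold changes of 2.17 and 0.997. The other metallothioneins tested, MT1A and MT1E, did not pass the test. Of 11 genes in that list 5 were tested, and MTF1 itself was at -0.12, a call that most other settings lost (edgeR quasi-likelihood test, Benjamini-Hochberg adjusted p = 0.04). Metallothioneins share sequence, and reads with several alignments were not counted.

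Genes of growth mostly fell. Of the 44 DNA replication genes tested, 43 (97.7%) were lower and none higher, against 43.9% and 37.7% of all genes. Of the 44, 33 (75%) were lower past 1.8-fold, where 11.5% of all genes tested were. Their median was -1.42 with siZIP7_2 and -0.81 with siZIP7_1. CCNE2, the cyclin E2 that starts S phase, was at 32.5, 37.5 and 41.8 CPM with siNC, 29.8, 34.4 and 28.7 CPM with siZIP7_1 and 4.697, 6.22 and 5.69 CPM with siZIP7_2. It fell with siZIP7_2 alone, with a log2 value of -2.74 (SE 0.102), and genes that overlap it cover 37.1% of its exons. PCNA, the sliding clamp of DNA polymerase, was at 177, 188 and 186 CPM with siNC and 49.9, 58.4 and 53.6 CPM with siZIP7_2 and also fell alone, with a log2 value of -1.77. PRIM1, the primase subunit, and E2F1, the factor that induces these genes, had log2 fold changes of -2.55 and -1.34.

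Of the 44 genes of mitosis and the spindle, 36 (81.8%) were lower, against 43.9% of all genes, and 1 higher. AURKB, the kinase of the chromosomal passenger complex, was at 129, 132 and 119 CPM with siNC and 27.7, 27.5 and 26.6 CPM with siZIP7_2, a log2 fold change of -2.21. CDC25B, the phosphatase that starts mitosis, had log2 fold changes of -1.83 with siZIP7_2 and -0.12 with siZIP7_1. MKI67, the proliferation marker, fell by 0.37. CENPA, the histone H3 variant of centromeres, was the exception, at 41.9, 43.3 and 46.5 CPM with siNC and 90.3, 97.2 and 95.05 CPM with siZIP7_2. It was higher in every siZIP7_2 library, by 1.10 (SE 0.0583), and it was changed by siZIP7_2 alone.

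Of the 79 cytosolic ribosomal protein genes, 76 (96.2%) were lower and none higher, where 43.9% and 37.7% of all genes tested were. RPL7, RPS3A and RPS27 did not pass the test. The median of the list was -0.84 against -0.42 with siZIP7_1, and 26 (32.9%) were lower past 1.8-fold, against 11.5% of all genes. RPL27, of the large subunit, was at 408, 458 and 436 CPM with siNC, 371, 386 and 422 CPM with siZIP7_1 and 181, 172 and 185 CPM with siZIP7_2 and was the one gene of the list changed by siZIP7_2 alone. Ribosomal protein genes have many processed copies, which makes single members uncertain. Of 98 factors of ribosome biogenesis, 86 (87.8%) were lower, against 43.9% of all genes, and 3 (NOP9, POLR1C and TAF1C) higher. FBL, the fibrillarin that methylates rRNA, was at 265, 309.7 and 265 CPM with siNC and 63.8, 74.9 and 73.5 CPM with siZIP7_2, a log2 fold change of -1.98, and those of NCL and NPM1, abundant nucleolar proteins, were -0.85 and -0.70. MYC, which drives ribosome production, gave -0.47 with siZIP7_2 and -0.38 with siZIP7_1, and MXD1, a partner of MAX that opposes it, rose by 1.47.

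**Figure D4:**
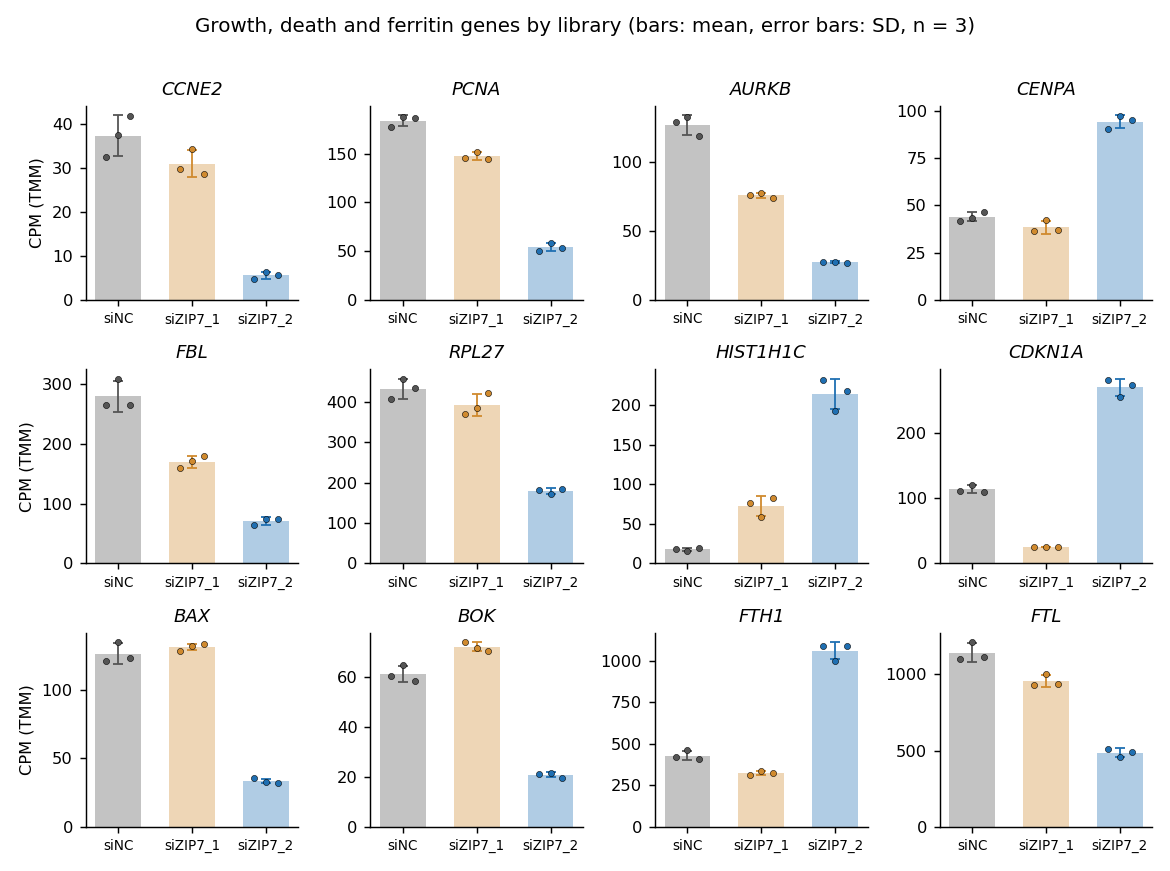
CPM of genes of growth, death and iron storage in each library of siNC, siZIP7_1 and siZIP7_2, with points for libraries, bars for the mean of 3 and error bars for the SD. BAX and BOK are low with siZIP7_2 only, CENPA is high with siZIP7_2 only, and FTH1 rises to 1060 ± 51.9 CPM while FTL falls to 486 ± 28.7 CPM.

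Histone cluster genes rose against this trend, though only 17 of 34 passed the low-count filter, which members high in one group pass more easily, so their count does not stand for the family. Of the 17, 15 (88.2%) were higher past 1.8-fold, where 12.1% of all genes tested were. HIST1H1C, a linker histone, was at 17.9, 15.6 and 19.8 CPM with siNC and 232, 193 and 218 CPM with siZIP7_2, a log2 fold change of 3.59 against 2.02 with siZIP7_1. HIST2H2BE was at 2.18, 1.68 and 1.78 CPM with siNC and 64.7, 48.1 and 55.3 CPM with siZIP7_2, a log2 fold change of 4.89. Most histone mRNAs lack a poly(A) tail, and the sources used here do not say how the libraries were selected. Of 31 targets of p53 and CDK inhibitors, 22 (71%) were higher and 9 (29%) lower, against 37.7% and 43.9% of all genes. CDKN1A, which encodes the CDK inhibitor p21, was at 110.4, 119.9 and 109 CPM with siNC, 24.9, 24.1 and 24.4 CPM with siZIP7_1 and 281, 255 and 273 CPM with siZIP7_2. The siRNAs moved it apart, with log2 fold changes of 1.25 for siZIP7_2 and -2.21 for siZIP7_1. GDF15, a stress cytokine, rose with siZIP7_2 by 2.10 and with siZIP7_1 by 3.39.

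Antigen presentation genes mostly fell. Of the 14 MHC class II genes tested, 12 (85.7%) were lower past 1.8-fold, against 11.5% of all genes, and 1, CTSS, was higher. HLA-DRA, the α chain of HLA-DR, was at 131, 118 and 136 CPM with siNC and 31.7, 32.96 and 31.9 CPM with siZIP7_2, and CD74, the invariant chain, at 843, 822 and 829 CPM with siNC and 371, 358 and 365 CPM with siZIP7_2. Both fell in all siZIP7_2 libraries, with log2 fold changes of -1.99 and -1.19, against -3.55 and -1.96 with siZIP7_1. CTSS, the cathepsin that cuts the invariant chain, was at 7.48, 6.53 and 7.62 CPM with siNC, 2.15, 2.47 and 1.98 CPM with siZIP7_1 and 24.7, 25.6 and 24.5 CPM with siZIP7_2, up with siZIP7_2 and down with siZIP7_1. Of 19 MHC class I genes, 16 (84.2%) were lower, against 43.9% of all genes, with HLA-B at -0.67 on the log2 scale. PSMB9, an immunoproteasome subunit, was at 29.4, 30.4 and 30.1 CPM with siNC and 4.97, 5.49 and 5.34 CPM with siZIP7_2, a log2 fold change of -2.50. HLA genes are alike and polymorphic, which can change how reads align. Interferon-stimulated genes had 18 of 40 (45%) higher and 13 (32.5%) lower, against 37.7% and 43.9% of all genes. Past 1.8-fold were 10 (25%), against 23.6% of all genes, and the median was 0.09. IFIT1 and IFIT2, which bind foreign RNA, rose by 1.35 and 1.69. ISG15, a ubiquitin-like modifier, was at 51.7, 52.8 and 47.5 CPM with siNC and 119, 102 and 109 CPM with siZIP7_2 and rose with siZIP7_2 alone, by 1.12. IFNB1, the interferon-β gene itself, did not pass the low-count filter.

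Lists of lipid, degradation and energy genes had smaller shares past 1.8-fold than the 23.6% of all genes. Their counts of higher and lower genes at an adjusted p under 0.05 stand against 37.7% and 43.9% of all genes tested. Of 30 genes of cholesterol synthesis, 18 (60%) were higher and 8 (26.7%) lower, and 16.7% were past 1.8-fold. INSIG1, which holds the sterol sensor in the ER, was at 85.4, 84.5 and 90.8 CPM with siNC and 207, 190.3 and 204 CPM with siZIP7_2, a log2 fold change of 1.21, while HMGCS1, the entry enzyme of the pathway, rose by 0.90 against 2.07 with siZIP7_1. PMVK, phosphomevalonate kinase, was at 43.1, 44.2 and 44.3 CPM with siNC, 40.4, 43.3 and 45.1 CPM with siZIP7_1 and 15.99, 14.2 and 15.3 CPM with siZIP7_2, low with siZIP7_2 only. Of 45 autophagy genes, 28 (62.2%) were higher and 9 (20%) lower, and 15.6% were past 1.8-fold. SQSTM1, the cargo receptor p62, was at 538, 541 and 529.6 CPM with siNC and 3284, 2982 and 3222 CPM with siZIP7_2, a log2 fold change of 2.56 (SE 0.0509), and GABARAPL1, an ATG8 relative, rose by 1.70. MAP1LC3A, an LC3 gene, went the other way, from 3.51 ± 0.463 to 1.55 ± 0.126 CPM (SD, n = 3 each). Of 46 lysosome genes, 29 (63%) were higher and 8 (17.4%) lower, and 13% were past 1.8-fold. TFEB, a master regulator of lysosome genes, was at 3.41, 2.96 and 3.097 CPM with siNC and 12.3, 8.09 and 9.997 CPM with siZIP7_2 and rose with siZIP7_2 alone, by 1.67. Of 75 nuclear genes of oxidative phosphorylation, 49 (65.3%) were lower and 11 (14.7%) higher, and 9.33% were past 1.8-fold. NDUFB5, of complex I, was at 51.3, 52.3 and 57.4 CPM with siNC and 18.3, 14.8 and 16.6 CPM with siZIP7_2, and SDHC, of complex II, at 44.8, 48.5 and 48.5 CPM with siNC and 20.3, 18.1 and 19.3 CPM with siZIP7_2. Both fell without overlap and with siZIP7_2 alone, with log2 fold changes of -1.70 and -1.30. NDRG1, a stress gene of the hypoxia list, was at 142, 134 and 153 CPM with siNC and 842, 768 and 803 CPM with siZIP7_2, a log2 fold change of 2.49, where VEGFA, the angiogenic factor, gave 0.19.

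Other lists are read against the 37.7% of all genes that were higher and the 43.9% that were lower. Of 40 proteasome genes, 24 (60%) were lower and 6 (15%) higher. Of 26 cytosolic heat shock genes, 12 (46.2%) were lower and 8 (30.8%) higher, and of 36 genes of hypoxia and glycolysis, 14 (38.9%) were higher and 13 (36.1%) lower, both near the shares of all genes. Of 27 genes of the growth regulator YAP, with its partners, kinases and targets, 11 (40.7%) were higher and 14 (51.9%) lower. The luminal epithelial markers had 5 of 10 higher and 5 lower, and 2 (20%) were higher past 1.8-fold, against 12.1% of all genes. They summed to 561 to 580 CPM with siZIP7_2 against 622 to 645 CPM with siNC.

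Of 13 RNA interference genes tested, 7 (53.8%) were higher and 6 (46.2%) lower, and 2 (15.4%), DROSHA and TNRC6C, were past 1.8-fold, against 23.6% of all genes. DROSHA, the nuclease that cuts primary microRNA transcripts, was at 102, 98.8 and 92.1 CPM with siNC, 85.2, 91.5 and 85.6 CPM with siZIP7_1 and 28.9, 32.5 and 30.4 CPM with siZIP7_2. The siZIP7_2 libraries alone were low, at 31.4% of the control mean (log2 fold change -1.67, SE 0.057, edgeR quasi-likelihood test, Benjamini-Hochberg adjusted p = 9.69e-21). TNRC6C, a partner of Argonaute in silencing, rose with siZIP7_2 alone, from 24.8 ± 0.634 to 73.6 ± 4.56 CPM (SD, n = 3 each).

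The genes changed by siZIP7_2 alone were of 2 kinds. Of the 388 higher genes, 204 stayed flat with siZIP7_1 and 184 had moved down past 1.8-fold with it. The 204 include FREM3, which had no read with siNC or siZIP7_1, so no counts bound its change there. Of the 501 lower genes, 467 stayed flat and 34 had moved up, so the lower genes were mostly absent from the siZIP7_1 response and the higher genes were split. The higher genes had a median of 13.2 CPM with siNC and the lower genes 37.0 CPM, where all genes tested had 30.6 CPM. The median exonic length was 4941 bases for the higher and 4602 bases for the lower genes, against 5114 bases over all genes tested, and the median GC content of the 250 bases before the start was 64.4% and 64.0% against 64.8%. The kB word was in 11 of the 299 matched promoters of the higher genes (3.68%) and in 4 of 398 of the lower genes (1.01%), against 1.40% over the promoters of genes tested. The higher genes include 18 of the NF-kB list, and CXCL1, which holds the kB word, is one of them. The count among the higher genes is therefore not separate from the count in that list, and the share without those genes was not tested. At the edge of the rule, SLC17A9 was just inside, with a log2 value of -0.48 with siZIP7_1 and a 95% interval from -0.58 to -0.37. FAM222A was just outside, at 0.35 with an interval from 0.11 to 0.59.

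**Figure D5:**
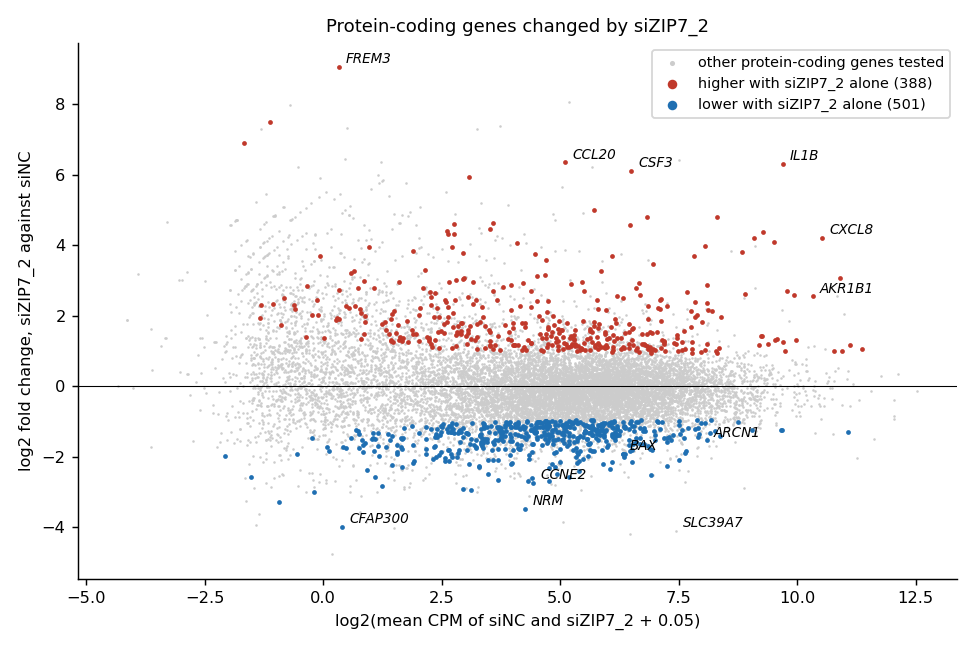
Log2 fold change of siZIP7_2 against siNC for 13322 protein-coding genes by their mean level on a log2 scale, with the 388 genes higher with siZIP7_2 alone in red and the 501 lower in blue. IL1B, CSF3 and CCL20 lie near the top of the red points, at log2 fold changes above 6, and NRM and CFAP300 near the bottom of the blue points. For genes without reads in siNC the plotted value depends on the prior count of the fit.

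Among the genes raised alone, CSF3, IL1B, BCL2A1 and CXCL1, described above, were among the 10 with the widest gap between the siRNAs. SH2D2A, a T cell adapter, was at 0.254, 0.344 and 0.214 CPM with siNC and 18.7, 14.7 and 16.1 CPM with siZIP7_2, and CST7, the cathepsin inhibitor cystatin F, at 0.944, 0.73 and 0.676 CPM with siNC and 12.2, 12.1 and 12.4 CPM with siZIP7_2. Both were near the limit of detection in siNC and well above it in every siZIP7_2 library. KRT79, a keratin, rose from 1.499 ± 0.489 to 12.4 ± 1.09 CPM (SD, n = 3 each), and siZIP7_1 left almost no reads. FREM3, an extracellular matrix protein gene, had no read in any siNC or siZIP7_1 library and 196 reads over the siZIP7_2 libraries. Without reads in either group no counts bound its change with siZIP7_1, so its flat call there does not show that it stayed unchanged. Against a floor of 3 counts over the siNC group FREM3 was at least 62.7-fold higher with siZIP7_2. TNFSF8, the ligand of CD30, also had no siNC read and was at least 62.4-fold higher by the same floor.

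Among the genes lowered alone, TNFSF18, BANK1 and AGR2 were among the 34 that siZIP7_1 had raised. TNFSF18, the ligand of the receptor GITR, was at 12.2, 12.9 and 15.6 CPM with siNC, 69.3, 68.2 and 61.6 CPM with siZIP7_1 and 1.86, 1.71 and 1.88 CPM with siZIP7_2. Its log2 fold change was -2.90 with siZIP7_2 and 2.29 with siZIP7_1. BANK1, a B cell scaffold, was at 3.63, 2.84 and 3.595 CPM with siNC, 38.3, 37.5 and 38.3 CPM with siZIP7_1 and 1.13, 1.02 and 0.961 CPM with siZIP7_2, and AGR2, an ER disulfide isomerase of secretory cells, at 4.94, 5.76 and 7.44 CPM with siNC, 14.7, 15.97 and 15.1 CPM with siZIP7_1 and 1.98, 1.22 and 0.807 CPM with siZIP7_2. The order siZIP7_1, siNC, siZIP7_2 from high to low held in all libraries of both genes. NRM, the nuclear envelope protein nurim, was at 37.6, 36.5 and 31.6 CPM with siNC, 31.4, 34.7 and 28.5 CPM with siZIP7_1 and 3.22, 3.29 and 2.96 CPM with siZIP7_2. It was flat with siZIP7_1 and fell to 8.96% of the control mean with siZIP7_2 (log2 fold change -3.47, SE 0.101, edgeR quasi-likelihood test, Benjamini-Hochberg adjusted p = 2.21e-22). CFAP300, a gene of cilia, fell in the same pattern at low counts, from 2.39 ± 0.421 to 0.145 ± 0.0598 CPM (SD, n = 3 each).

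The largest changes of siZIP7_2 were in part shared with siZIP7_1. VIPR1, the receptor of vasoactive intestinal peptide, was at 169, 162 and 172 CPM with siNC and 8.66, 9.51 and 9.38 CPM with siZIP7_2, a log2 fold change of -4.19 against -2.85 with siZIP7_1. CD96, an immune receptor, was at 65.02, 55.1 and 67.9 CPM with siNC and 4.58, 4.51 and 3.96 CPM with siZIP7_2 and gave -3.85 against -4.13. PRSS35, a serine protease relative, was at 0.399, 0.215 and 0.178 CPM with siNC and 90.5, 53.2 and 72.9 CPM with siZIP7_2, and SLC6A12, the betaine and GABA transporter, at 0.145, 0.129 and 0.178 CPM with siNC and 33.9, 18.3 and 26.99 CPM with siZIP7_2. Both were hardly detected in siNC and high in every siZIP7_2 library, with log2 fold changes of 8.06 and 7.39. With siZIP7_1 no library had more than 3 reads for either gene, and neither met the rule for genes changed alone because their intervals with siZIP7_1 were wide.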

How the data were processed

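RNA of MDA-MB-231 cells was sequenced as single reads, and the authors deposited raw counts of reads per gene for each library. Per the processing notes in the labels, the tools were Trim Galore 0.4.1, FastQC 0.11.2, STAR, HTSeq 0.6.1 and DESeq2 1.16.1, and the genome build and the strand setting are not given in the sources used here. HTSeq does not count reads with several alignments, so genes with near-identical copies are uncertain, and without the strand setting so are genes that overlap others. The 5 summary lines of HTSeq were left out of library sizes and tests.

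Identifiers were named with GENCODE release 29, which matched 58275 of 58395. Counts were filtered with filterByExpr at its default minimum of 10 counts, scaled by TMM and fitted with edgeR 4.0.16 in R 4.3.3, with all 9 libraries in one fit of 3 groups. Quasi-likelihood F-tests were adjusted by Benjamini-Hochberg over 16761 genes of all types, and glmTreat was used for changes past 1.8-fold. SE is the size of the log2 fold change divided by the square root of F, and SD is over the 3 libraries of a group. The fit was tested on simulated data. With 24153785 to 30454419 reads per library, a floor of 3 counts over the siNC group was used where that group had no read, which covers counting error only.

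The members and the lists were chosen with earlier results of these data known. The genes named were the 10 largest rises and falls past 1.8-fold, the 10 widest gaps between the siRNAs in each direction among genes changed alone, and in each list its best-known members and the 2 largest rises and falls, all with a mean of at least 1 CPM in the higher group except the best-known members. BIRC3, CCL2, CFLAR, CSF1, CSF2, CXCL2, CXCL3, FTH1, HMOX1, ICAM1, IL11, IL1A, ME1, MMP1, NFKBIA, NQO1, PCNA, PLAUR, PSPH, RELA, SLC7A5, TIMP1, TNC and TNFAIP3 were added after their values were seen. Alternatives were other normalizations, filters, fold limits, DESeq2, a replicate block, protein-coding genes alone, 2 groups alone and leaving out each library. Some genes the rule named are not reported here.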

Additional observations from a re-analysis of the deposited data

Results flagged for a closer look

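The share of reads aligned outside annotated genes, which the comparisons of genes do not use, was 7.81 ± 0.429% with siNC and 10.8 ± 0.749% with siZIP7_2 (SD, n = 3 each), a difference of 3.00 percentage points. It was flagged as a signal in data outside the gene counts that lay above the control level. Every siZIP7_2 library was above every siNC library, and the exact two-sided permutation test gave p = 0.1, the smallest that 3 against 3 libraries allow.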

How the results depend on the processing

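Against siNC, siZIP7_2 changed 10583 to 10709 protein-coding genes without one library at a time, 3056 to 3125 past 1.8-fold, and 811 to 876 alone. The limits on fold moved counts by over 1.5 times: a minimum fold of 1.5 gave 5001 genes past it (2642 lower) and 1773 changed alone (727 higher, 1046 lower), a minimum of 2 gave 331 genes lower alone, and adjusted p alone gave 2252 (1133 higher, 1119 lower), as their construction sets. Upper-quartile scaling gave 1831 higher and 1245 lower past 1.8-fold, and 440 higher and 398 lower alone. Same-numbered libraries of different groups did not deviate together (correlations across genes from -0.0493 to 0.0754), so the numbers were not taken as pairing them. With the replicate block, 10917 genes changed, 3157 past 1.8-fold and 893 alone. Of 1850 values of 133 named genes under alternatives, 1830 kept direction and side of the threshold. The exceptions were GPX4, CSF1, MTF1 and RELA. CSF1 turned to 0.0004 with upper-quartile scaling and passed as lower without the low-count filter (-0.159), with the block (-0.108), without siNC replicate 2 (-0.156) and without siZIP7_2 replicate 1 (-0.173). RELA passed as higher with upper-quartile scaling (0.133) and under a filter of 10 counts per library (0.101), turned to -0.0258 without the low-count filter and, leaving out single libraries, ranged from -0.0103 without siZIP7_2 replicate 1 to 0.0568, and the cause was not tested. Medians of 7 of 37 lists changed sign under some alternative: ZnT exporters, metallothioneins, unfolded protein response factors, ER to Golgi trafficking, heat shock, hypoxia and luminal markers. Depth limits genes near 0 reads in a group.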
